A study of Mus musculus with 16 samples.

Results

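The MHC class II presentation genes were described in 2 cell subsets, sorted from lymph nodes of tumor-bearing mice and named macrophages by the study. These 10 genes, H2-Aa, H2-Ab1, H2-Eb1, H2-DMa, H2-DMb1, H2-DMb2, H2-Oa, H2-Ob, Cd74 and Ciita, were chosen by symbol with earlier results of the same libraries known, and they are 10 of the 21085 genes tested. Their levels and differences are therefore given as a description, with no p-value printed for a single member. RNA sequencing covered 8 libraries, 2 in each of 4 groups. Sub-capsular sinus macrophages (SSMs) were sorted as CD11c- cells with low side scatter and medullary sinus macrophages (MSMs) as CD11c+ cells with high side scatter. Both were viable cells that carried CD45, CD11b and CD169 and lacked CD3, B220 and Ly6G. All mice were C57B/6 males, of an age not given in the sources used here, and all carried MOC2, a mouse squamous cell carcinoma line that had been placed in the skin of the flank 2 weeks earlier. The groups were SSMs and MSMs from tumor-draining lymph nodes (tdLN), and SSMs and MSMs from non-draining lymph nodes (ndLN) on the other side of the body. No group came from a tumor-free mouse, each library pooled the nodes of 2 mice, and the ndLN pool combined inguinal, axillary and brachial nodes. The values thus show the spread between 2 pools, and in sorted bulk samples fewer cells of a type and less RNA per cell cannot be told apart.

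MHC class II molecules are pairs of an alpha and a beta chain that show peptides from endosomes and lysosomes to CD4+ T cells. The invariant chain, encoded by Cd74, fills the groove of newly made class II molecules. After proteases trim it, the editor H2-DM exchanges its last fragment for other peptides, and H2-O, known best from B cells, inhibits H2-DM. The transactivator Ciita switches the family on by binding a complex of RFX, CREB and NF-Y proteins that sits on the X and Y boxes of class II promoters. SSMs line the sinus beneath the capsule of the lymph node and are known for catching antigen that arrives with the lymph.

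The 8 members outside Cd74 and Ciita lie within 224.3 kb on chromosome 17 (GRCm38). No promoter of H2-Ab1, Cd74 or Ciita was used, and Cd74 was left out of the search by its chromosome. The other 7 of the 10 were read among the RefSeq promoters, which cover 250 bases before to 50 bases after a start site. In 6 of these, the letters CNNNNAAC, which resemble the core of an X box, were followed within 15 to 45 bases by ATTGG, the Y box letters, on the strand of the gene. These letters were chosen after the promoters had been read. The pair occurred on the gene strand of 2.10% and on either strand of 4.26% of all 32851 promoters in the table, and ATTGG alone on either strand of 37.4%. The segments are shown because genes that share this layout differed in how they moved between nodes, as described further on. Capitals mark both sets of letters, and each segment is written from 5′ to 3′ on the strand of its gene (GRCm38.p6).
H2-Aa, chr17:34287861-34287913, minus strand: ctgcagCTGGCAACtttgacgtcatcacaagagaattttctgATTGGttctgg
H2-Eb1, chr17:34305767-34305818, plus strand: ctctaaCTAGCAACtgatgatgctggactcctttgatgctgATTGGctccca
H2-DMb1, chr17:34153088-34153140, plus strand: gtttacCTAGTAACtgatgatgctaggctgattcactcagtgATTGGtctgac
H2-DMb2, chr17:34145117-34145169, plus strand: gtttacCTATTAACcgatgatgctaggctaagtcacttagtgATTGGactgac
H2-Oa, chr17:34092294-34092346, plus strand: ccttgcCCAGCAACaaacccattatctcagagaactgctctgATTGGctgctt
H2-Ob, chr17:34238809-34238858, plus strand: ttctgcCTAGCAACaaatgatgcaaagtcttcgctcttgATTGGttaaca
Both sets of letters were 25 to 28 bases apart in these 6 promoters. The pair was not found on either strand in any promoter entry of H2-DMa. A match is a description of letters and not a shown binding site.

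The libraries held between 42972328 and 48130352 reads each, so a count of 3 corresponds to 0.0623 to 0.0698 CPM (counts per 1000000 reads), and all members were above this floor in every library. CPM are read counts scaled to the size of the library by the TMM method. A gene was called different where edgeR's quasi-likelihood test gave an adjusted p-value under 0.01 and its normalized count averaged over 100 per lane. Siglec1 encodes CD169, a marker for which both subsets had been sorted, so its level does not check the labels of the subsets. In tdLN, Siglec1 stood at 59.2 to 70.0 CPM in SSMs and 5.64 to 5.96 CPM in MSMs. In ndLN it was at 8.47 to 15.1 CPM in SSMs and 0.795 to 1.63 CPM in MSMs, so its transcript was close to absent in the latter although the cells had been sorted for the protein.

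In ndLN, all 10 members were lower in SSMs than in MSMs. The 3 class II chain genes were 9.33- to 12.2-fold lower, Cd74 9.05-fold lower and the H2-O genes 22.2- to 41.8-fold lower, whereas Ciita showed the smallest difference, 7.17-fold. All 10 members were called lower, beside 6.06% of all genes called lower in SSMs and 6.01% called higher. The median log2 difference of the members was -3.35, and that of all genes tested was 0.09. No library of SSMs overlapped one of MSMs for any member, beside 26.5% of all genes that were lower in SSMs without overlap.

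In tdLN, SSMs were closer to MSMs, and the members split. The chain genes were 1.99- to 2.26-fold lower in SSMs, H2-DMa and H2-DMb1 1.46- to 1.56-fold lower, and the H2-O genes still 19.7- to 27.9-fold lower. Calls were made for 8 members, all lower in SSMs, beside 3.53% of all genes called lower and 5.16% called higher, and H2-DMa and H2-DMb1 were not called. The members' median log2 difference was -1.08, against 0.02 for all genes tested. The groups did not overlap for any member here either, beside 27.1% of all genes lower in SSMs without overlap. The number of members called was 3 without library 1 or without library 2 of tdLN SSMs or without library 2 of tdLN MSMs, 7 without library 1 of tdLN MSMs, and 6 without either library of ndLN MSMs. H2-DMb2, H2-Oa and H2-Ob were called in all of these fits.

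The comparison of tdLN with ndLN within SSMs describes how these cells differed between nodes. Drainage of the tumor and the site of the nodes cannot be told apart in it. In tdLN SSMs, 7 members were higher than in ndLN SSMs, 4.01- to 5.35-fold, and they include the chain genes, Cd74, H2-DMa, H2-DMb1 and Ciita. H2-DMb2 was not called at a log2 difference of 0.73 ± 0.20 (SE), and H2-Oa and H2-Ob were not called at -0.14 ± 0.19 and -0.14 ± 0.17. Among all genes, 1.98% were called higher in tdLN SSMs and 1.05% lower. The median log2 difference of the 10 members was 2.10, and that of all genes tested was -0.04. In SSMs 8 members did not overlap between nodes, all of them higher in tdLN, while H2-Oa and H2-Ob overlapped. Of all genes, 25.6% were higher in tdLN SSMs without overlap. The calls depended on single libraries. None of the 10 members was called by edgeR without library 1 or without library 2 of tdLN SSMs, and H2-Ab1 and Ciita were the only members called without library 2 of ndLN SSMs. A fit on these 4 libraries alone also called 0 of the 10, with the chain genes at log2 differences between 2.08 and 2.16.

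**Figure D1:**
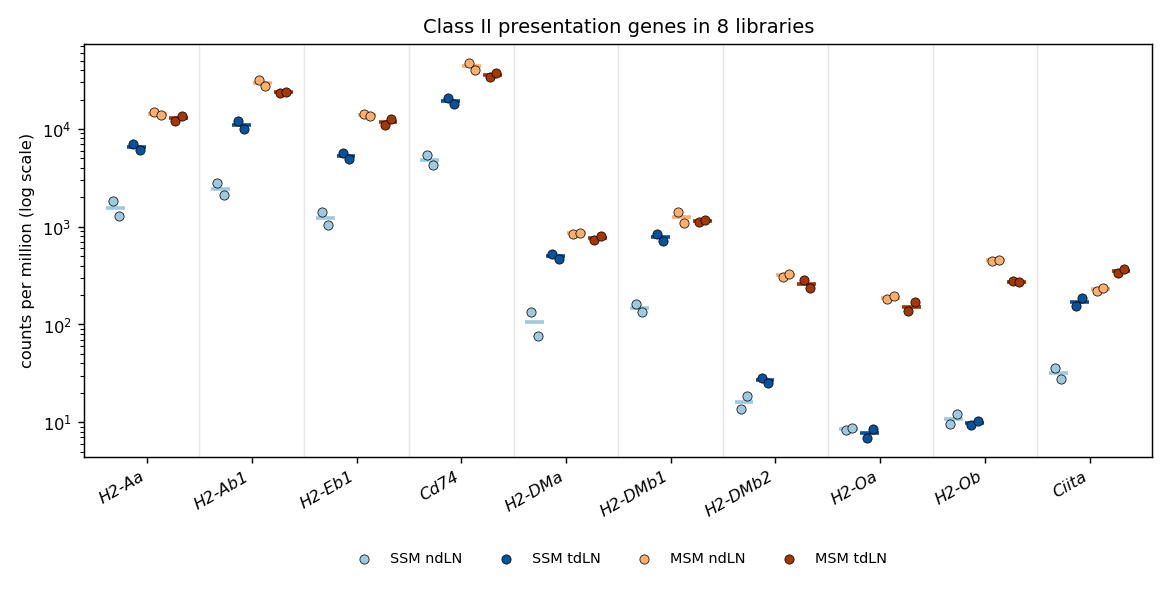
CPM on a log scale for each of the 10 members, with 1 point per library, 2 libraries per group and a short line at the group mean. SSMs lie below MSMs for every member, and tdLN SSMs lie above ndLN SSMs for all members other than H2-Oa and H2-Ob.

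**Figure D2:**
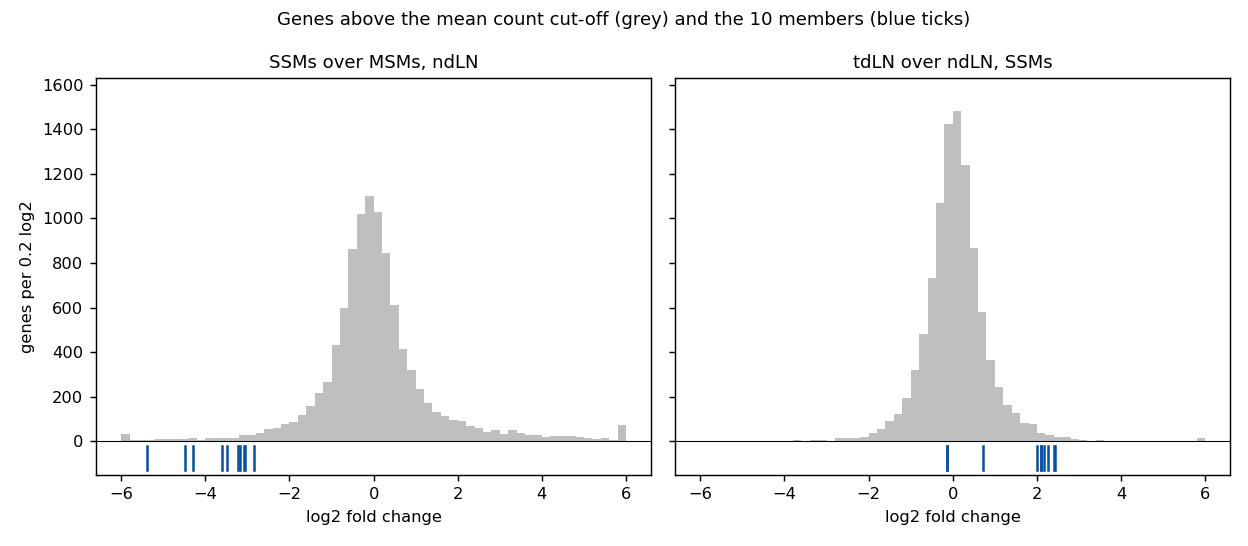
Number of genes (vertical axis) by log2 fold change (horizontal axis, bins of 0.2, values beyond 6 placed in the end bins) for the 9996 genes above the mean count cut-off, with blue ticks below for the 10 members. In the left panel, SSMs over MSMs in ndLN, every member sits between -5.38 and -2.84. In the right panel, tdLN over ndLN in SSMs, 7 members sit between 2.01 and 2.42 and the other members between -0.14 and 0.73.

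Among MSMs, the nodes differed little for the members. None of the 10 was called between tdLN and ndLN by edgeR, beside 0.0237% of all genes called in either direction, and 3 members had an unadjusted p-value under 0.05, as had 11.9% of all genes tested. DESeq2 called 1 member, H2-Ob, at a log2 difference of -0.75, among 458 genes called. The members' median log2 difference was -0.24 and that of all genes tested 0.01. For 8 members, MSMs lay lower in both tdLN libraries than in both ndLN libraries of MSMs, H2-DMb1 overlapped, and Ciita lay higher. Of all genes, 18.1% were lower in tdLN MSMs without overlap.

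The difference of differences was tested as the interaction of subset and node, which asks whether the step from ndLN to tdLN differed between SSMs and MSMs. H2-Ab1, H2-DMb1 and Cd74 were called, each with the larger step in SSMs, beside 0.0332% of all genes called in that direction. This makes 3 of 7 such genes, the others being Fgd2, Plbd1, Kmo and Htr7, names chosen with their values in view. The members' median log2 interaction was 2.25 and that of all genes tested -0.01. Without the pool term, which pairs the libraries by number, 5 members were called, with H2-Aa and H2-Eb1 added. No member was called by edgeR once any one of the 8 libraries was left out.

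The class II chains form the molecule that reaches the cell surface. H2-Aa, the alpha chain, was at 1815 and 1284 CPM in ndLN SSMs and at 6980 and 6115 CPM in tdLN SSMs. In MSMs it was at 14919 and 13779 CPM in ndLN and at 12192 and 13667 CPM in tdLN. tdLN SSMs thus stood between ndLN SSMs and both groups of MSMs, without overlap. The log2 difference between nodes was 2.09 ± 0.15 (SE) in SSMs and -0.14 ± 0.14 in MSMs.

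H2-Ab1, the partner beta chain, was at 2770 and 2121 CPM in ndLN SSMs and at 12022 and 9961 CPM in tdLN SSMs. MSMs held 31880 and 27318 CPM in ndLN and 23585 and 23939 CPM in tdLN. It followed the same order of groups as H2-Aa, and in MSMs both tdLN libraries were below both ndLN libraries. The log2 difference between nodes was 2.17 ± 0.11 in SSMs and -0.31 ± 0.10 in MSMs, and the interaction was 2.48 ± 0.15.

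H2-Eb1 encodes a second beta chain. C57BL/6 mice lack a working H2-Ea gene, so this chain has no partner of its own pair. It was at 1432 and 1046 CPM in ndLN SSMs and at 5745 and 4882 CPM in tdLN SSMs, with a log2 difference of 2.11 ± 0.15. MSMs held 14132 and 13471 CPM in ndLN and 11107 and 12718 CPM in tdLN. Transcripts of the H2-Ea pseudogene, listed as H2-Ea-ps, did not pass 1.29 CPM in any library. H2-Eb1 therefore varied across the groups as H2-Ab1 did although its partner was not transcribed above that level, and the ratio of H2-Eb1 to H2-Ab1, in CPM per kb of exon, was between 0.586 and 0.702 in all 8 libraries.

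Cd74 was the most abundant member. It was at 5436 and 4253 CPM in ndLN SSMs, 20778 and 18000 CPM in tdLN SSMs, 47633 and 39918 CPM in ndLN MSMs, and 34262 and 37653 CPM in tdLN MSMs. By CPM it ranked between first and the 7th gene of a library. Its log2 difference between nodes was 2.01 ± 0.12 in SSMs and -0.27 ± 0.12 in MSMs, and its interaction was 2.28 ± 0.17. Cd74 alone took 0.552% ± 0.0886 of all reads in ndLN SSMs and 4.08% ± 0.315 in ndLN MSMs (SD, n = 2), and the 10 members together took 1.19% ± 0.214 and 9.77% ± 0.479. In tdLN the 10 members took 4.31% ± 0.343 of reads in SSMs and 8.32% ± 0.374 in MSMs.

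H2-DM is a pair of H2-DMa with either H2-DMb1 or H2-DMb2. H2-DMa was at 133 and 77.1 CPM in ndLN SSMs and at 529 and 467 CPM in tdLN SSMs, where its log2 difference was 2.26 ± 0.22. MSMs held 840 and 870 CPM in ndLN and 732 and 811 CPM in tdLN. H2-DMb1 was at 160 and 135 CPM in ndLN SSMs and at 849 and 721 CPM in tdLN SSMs, with 1420 and 1086 CPM in ndLN MSMs and 1114 and 1161 CPM in tdLN MSMs. Its log2 difference between nodes in SSMs was 2.41 ± 0.14 and its interaction 2.53 ± 0.19. Of all members, these had the levels in tdLN SSMs that came closest to tdLN MSMs on the log2 scale, at -0.64 ± 0.21 for H2-DMa and -0.54 ± 0.13 for H2-DMb1.

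H2-DMb2 took another course. It was at 13.8 and 18.7 CPM in ndLN SSMs and at 28.4 and 25.3 CPM in tdLN SSMs, but at 305 and 330 CPM in ndLN MSMs and 287 and 235 CPM in tdLN MSMs. tdLN SSMs remained 9.72-fold below tdLN MSMs. As a share of both beta chain genes, in CPM per kb of exon, H2-DMb2 made up 9.70% ± 2.89 in ndLN SSMs, 3.19% ± 0.105 in tdLN SSMs, 19.9% ± 3.89 in ndLN MSMs and 18.1% ± 2.49 in tdLN MSMs (SD, n = 2). The genes are near copies, since 21.2% of the windows of 50 bases in H2-DMb2 transcripts also occur in H2-DMb1 and 22.7% of those in H2-DMb1 occur in H2-DMb2. Reads from those parts cannot be assigned to one of them, and their part in the levels was not tested. H2-DMa shares 8.43% of its windows with Brd2, an overlapping gene on the opposite strand that was at 272 to 344 CPM in all libraries, and the strand setting of the counting is not given in the sources used here.

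H2-O pairs H2-Oa with H2-Ob and inhibits H2-DM. H2-Oa was at 8.29 and 8.71 CPM in ndLN SSMs and at 6.93 and 8.57 CPM in tdLN SSMs, while MSMs held 183 and 194 CPM in ndLN and 137 and 168 CPM in tdLN. H2-Ob was at 9.69 and 12.1 CPM in ndLN SSMs and at 9.33 and 10.4 CPM in tdLN SSMs, with 448 and 458 CPM in ndLN MSMs and 278 and 271 CPM in tdLN MSMs. Both genes were thus low in all 4 SSM libraries, with overlapping values between nodes. Their log2 differences between SSMs and MSMs were -4.47 ± 0.17 and -5.38 ± 0.17 in ndLN and -4.30 ± 0.17 and -4.80 ± 0.17 in tdLN. In MSMs, H2-Ob had a log2 difference between nodes of -0.72 ± 0.13, the widest of the members, and it was not called by edgeR. Of the windows of H2-Oa, 15.5% lie in BC051537, an antisense gene that did not pass 0.802 CPM in any library.

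Ciita, the transactivator, was at 35.6 and 27.8 CPM in ndLN SSMs and at 156 and 185 CPM in tdLN SSMs. MSMs held 222 and 234 CPM in ndLN and 333 and 367 CPM in tdLN. The log2 difference between nodes was 2.42 ± 0.18 in SSMs and 0.62 ± 0.16 in MSMs, and the interaction, at 1.80 ± 0.24, was not called. It was the only member that lay higher in tdLN in both subsets, although the difference in MSMs was not called.

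**Figure D3:**
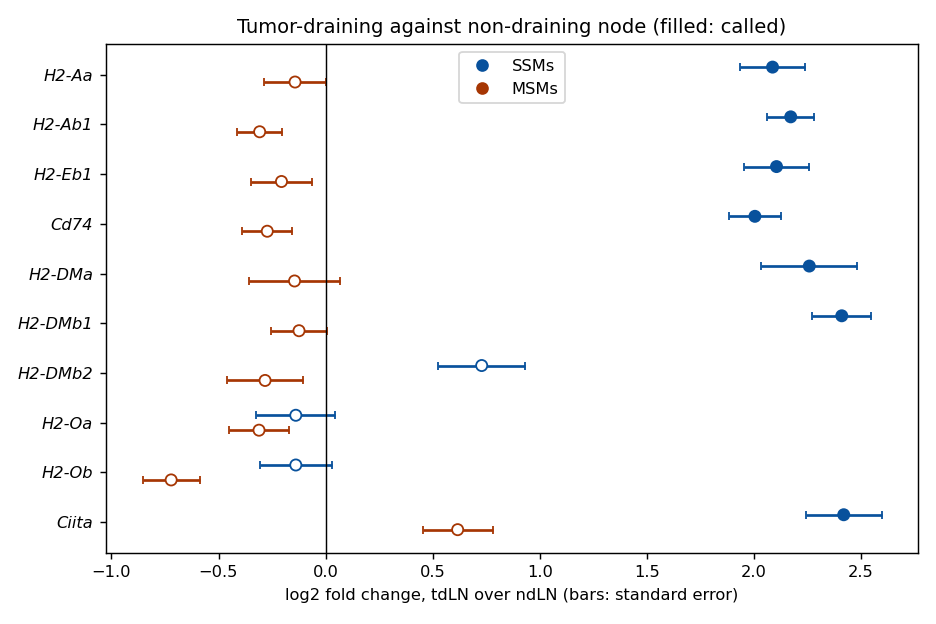
Log2 fold change from ndLN to tdLN (horizontal axis) for each member in SSMs (blue) and MSMs (orange-brown), with bars of 1 standard error and filled points where the gene was called. In SSMs 7 members lie between 2.01 and 2.42, H2-DMb2 at 0.73 and the H2-O genes at -0.14, while in MSMs all members other than Ciita lie between -0.72 and -0.12.

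Ratios between members were set in CPM per kb of exon within a library, so that the scaling of libraries cancels. H2-O per 100 H2-DM was 5.42 and 7.44 in ndLN SSMs and 0.987 and 1.39 in tdLN SSMs. In MSMs it was 16.9 and 20.5 in ndLN and 14.4 and 16.0 in tdLN. tdLN SSMs were therefore lowest in both libraries, without overlap with any other group. The sum of H2-DMa and H2-DMb1 per 100 class II chains was 5.85 and 6.03 in ndLN SSMs and 6.95 and 7.06 in tdLN SSMs. In MSMs it was 4.61 and 4.24 in ndLN and 4.83 and 4.76 in tdLN, so all SSM libraries lay above all MSM libraries. Cd74 per class II chain stayed in a narrow range, from 1.12 to 1.49 over the 8 libraries, and was higher in all 4 SSM libraries than in all 4 MSM libraries. Class II chains per Ciita were 599 ± 21.1 in ndLN SSMs, 496 ± 118 in tdLN SSMs and 512 ± 9.09 in tdLN MSMs, and highest, at 939 ± 108, in ndLN MSMs. These ratios were not tested, since an exact permutation test of 2 libraries against 2 cannot give a two-sided p below 0.333.

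**Figure D4:**
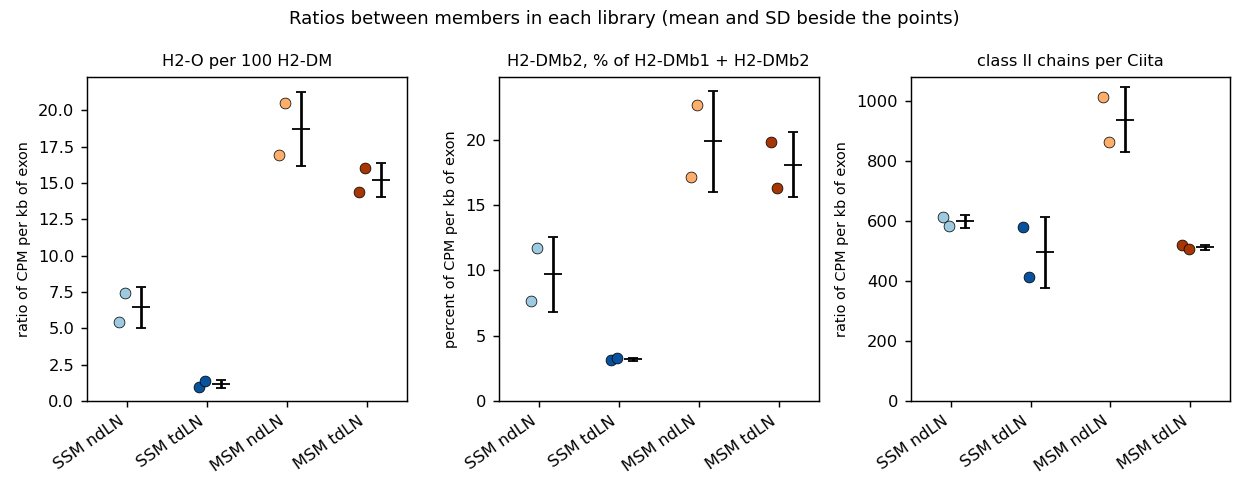
Ratios in each of the 8 libraries, with the mean and SD of each group of 2 beside the points. H2-O per 100 H2-DM (left) and the share of H2-DMb2 in both beta chain genes (middle, in percent) are lowest in tdLN SSMs, and class II chains per Ciita (right) are highest in ndLN MSMs.

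Compared per kb of exon, the order of the members within a group was led by Cd74, H2-Ab1, H2-Eb1 and H2-Aa in all 4 groups. In ndLN SSMs these means were 2885, 952, 637 and 408 CPM per kb, followed by H2-DMb1 at 87.9 and H2-DMa at 30.5 CPM per kb. The lowest were H2-Ob at 2.02, Ciita at 3.33 and H2-Oa at 6.04 CPM per kb. In ndLN MSMs, H2-Ob, at 84.2 CPM per kb, exceeded Ciita, at 23.9 CPM per kb, so the order of these genes was exchanged. In tdLN SSMs, Ciita, at 17.9 CPM per kb, stood above H2-DMb2, at 15.4, H2-Oa, at 5.51, and H2-Ob, at 1.83 CPM per kb. The annotated exon length includes all isoforms, so that a gene with long minor isoforms such as Ciita, whose exons sum to 9535 bases, is given a low value on this scale.

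Members that lie next to each other in the region had unlike differences. From H2-Oa, at -0.14 on the log2 scale between nodes in SSMs, the region runs through H2-DMa at 2.26, H2-DMb2 at 0.73 and H2-DMb1 at 2.41. Then come the class I genes Psmb9, Tap1, Psmb8 and Tap2, at 1.00, 0.93, 0.73 and 0.02. H2-Ob, at -0.14, lies next to H2-Ab1, at 2.17, which is followed by H2-Aa and H2-Eb1. H2-Ob ends 162.07 kb and H2-Ab1 starts 165.35 kb from the start of H2-Oa. Ciita lies on chromosome 16, from 10480059 to 10528418, and Cd74 outside this region as well.

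**Figure D5:**
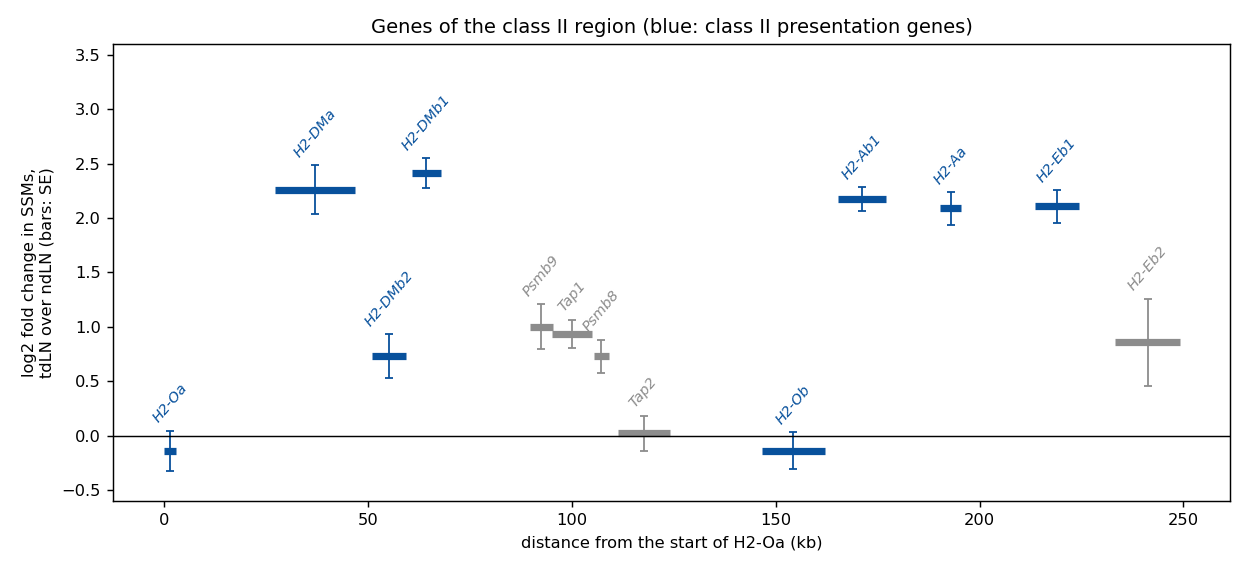
Log2 fold change between nodes in SSMs (vertical axis, with bars of 1 standard error) against the distance from the start of H2-Oa in kb (horizontal axis), each horizontal bar spanning a gene. Blue marks the 8 members of the region and grey its other listed genes above the mean count cut-off. H2-Oa and H2-Ob lie at -0.14 among neighbors that reach 2.41.

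The pathway around the members was described by lists of genes that are no members. The proteins that Ciita binds at promoters are encoded by 7 listed genes, for RFX, NF-Y and CREB. Of these, 0 were called between nodes in SSMs by edgeR, where Rfx5 had a log2 difference of 0.55 ± 0.21 and the list a median of 0.12. In ndLN only Rfxap, an RFX subunit, was called, at -0.85 ± 0.15 between SSMs and MSMs (adjusted p = 0.00587, edgeR). Of 8 genes of the interferon gamma axis, which induces Ciita, Ifng, Ifngr1, Jak1 and Socs1 were called higher in SSMs than in ndLN MSMs, at log2 differences of 3.86, 1.04, 1.27 and 2.13. This direction is opposite to that of the members. Ifng, a product of T and NK cells, was at 34.0 to 42.8 CPM in SSMs and at 2.36 to 3.08 CPM in ndLN MSMs. Of 11 T cell markers, 10 were also called higher in SSMs there and 1, Cd8a, lower. The part of T cells in the level of Ifng was not tested. Between nodes in SSMs, Socs1, a feedback inhibitor of the axis, was called lower at -1.63 ± 0.24 (adjusted p = 0.00698, edgeR), and Irf1 was not called at a log2 difference of 0.09 ± 0.15.

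Of 12 genes for processing enzymes, 6 were called higher in tdLN SSMs than in ndLN SSMs, beside 1.98% of all genes. In this list 0 were called lower and 6 not called, and the list's median was 1.42. Among those not called, Ctsf, Ctse and Ctsd had log2 differences of -1.84 ± 0.41, -0.41 ± 0.24 and -0.05 ± 0.27. Ctss, the protease that trims the invariant chain, was at 1022 and 659 CPM in ndLN SSMs and 3325 and 2826 CPM in tdLN SSMs, a log2 difference of 1.89 ± 0.16 (adjusted p = 0.00158, edgeR). Ifi30, a reductase that opens disulfide bonds of antigens, changed by 2.41 ± 0.25 and the asparagine endopeptidase Lgmn by 1.72 ± 0.19 (adjusted p = 0.00255 and 0.00275, edgeR). Ctsb, Ctsh and Ctsz were the other cathepsins called higher. Over all 8 pathway lists, 11 of 50 genes were called between nodes in SSMs, 0 without library 1 or without library 2 of tdLN SSMs and 1 without library 2 of ndLN SSMs. In ndLN the list was divided between subsets. Cst3, the cathepsin inhibitor cystatin C, was called lower in SSMs at -4.40 ± 0.18, Ctsh, Ctsz and Ifi30 were also called lower, and Ctsd and Ctsf were called higher at 2.48 ± 0.29 and 3.38 ± 0.48. Cst3 was at 618 to 744 CPM in SSMs and 14095 to 14646 CPM in ndLN MSMs, and it was not called between nodes in SSMs.

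Turnover genes and costimulatory ligands were also described. March1, the ubiquitin ligase that sends surface class II to degradation, was called higher in tdLN SSMs at 2.12 ± 0.29 (adjusted p = 0.00564, edgeR). It was called lower in SSMs than in ndLN MSMs at -2.20 ± 0.29, as was Cd83, which opposes March1, at -2.18 ± 0.18, whereas March8 was called higher at 2.85 ± 0.42. Of the 4 ligands Cd80, Cd86, Cd40 and Icosl, all were called lower in SSMs than in ndLN MSMs, at log2 differences of -1.76, -3.12, -1.39 and -1.10. Between nodes in SSMs, Cd86 and Cd40 were called higher, at 1.25 ± 0.14 and 1.17 ± 0.15. Of the 5 genes of the MIF axis, whose receptor includes the invariant chain, 0 were called by edgeR in either subset between nodes, and Cxcr4 alone was called higher in SSMs than in tdLN MSMs, at 1.56 ± 0.26.

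The list of class I presentation genes held 9 genes. Between nodes in SSMs, Tap1 alone was called, higher at 0.93 ± 0.13 (adjusted p = 0.00662, edgeR), and the list's median was 0.32. In ndLN, Psmb9, Tap1, Psmb8 and Tap2, the genes that lie inside the class II region, were called lower in SSMs than in MSMs at -2.43 ± 0.21, -1.87 ± 0.13, -1.34 ± 0.15 and -0.98 ± 0.16, and H2-K1 was called higher at 0.56 ± 0.09. H2-Eb2, a class II gene that is no member, was called lower in ndLN SSMs at -2.22 ± 0.38 and was not called between nodes. None of the 50 genes in the 8 lists was called in MSMs between nodes or in the interaction by edgeR.

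Markers of other cell types differed between the groups. The 12 macrophage markers summed to 5950 to 9195 CPM in ndLN SSMs and to 15991 to 23231 CPM in tdLN SSMs, and 8 of them were called higher in tdLN. In MSMs they summed to 4803 to 5485 CPM in ndLN and 4951 to 5355 CPM in tdLN. Lyz2 made up most of these sums, and the other 11 markers summed to 906 to 1255 CPM in ndLN SSMs and 3060 to 3923 CPM in tdLN SSMs. Between SSMs and MSMs of ndLN, 3 markers were called higher in SSMs and 3 lower, namely Cd68, Mertk and Timd4, and the list's median log2 difference was -0.31. The part of the macrophage markers in the difference between nodes was not tested. The 11 dendritic cell markers summed to 2018 to 2927 CPM in SSMs and 5497 to 5873 CPM in ndLN MSMs, and to 1111 to 1842 CPM in SSMs and 7063 to 7373 CPM in tdLN MSMs. Of these, 7 were called lower in SSMs in ndLN and 9 in tdLN, and 0 were called between nodes in SSMs by edgeR. Xcr1 and Clec9a, receptors of cross-presenting dendritic cells, were at 630 to 752 and 132 to 203 CPM in MSMs and at 14.2 to 33.6 and 0.807 to 2.08 CPM in SSMs. Between subsets, the dendritic cell list is therefore high where the members are high, and its part in that difference was not tested. Between nodes, its sum was lower in tdLN SSMs than in ndLN SSMs, where 7 members were called higher in tdLN. Without Ccr7, the largest marker, the other 10 summed to 785 to 1050 CPM in ndLN SSMs and 510 to 942 CPM in tdLN SSMs, which overlap. The list's median log2 difference there was -0.64, although Cd209a rose from 14.3 to 20.3 CPM in ndLN SSMs to 53.8 to 93.2 CPM in tdLN SSMs. In MSMs the sum was higher in tdLN with or without Ccr7, where most members lay lower. The part of dendritic cells in the difference between nodes was not tested.

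B cells carry class II and H2-O. The 10 B cell markers summed to 115 to 174 CPM in SSMs and 35.7 to 79.8 CPM in MSMs over both nodes, and Pax5 did not pass 0.594 CPM in any library. Most of the sum in SSMs came from Blk. Without it, the other 9 markers summed to 24.8 to 32.5 CPM in SSMs and 33.4 to 71.4 CPM in MSMs of ndLN, and to 40.2 to 43.0 CPM in SSMs and 36.7 to 44.0 CPM in MSMs of tdLN. Between SSMs and MSMs of ndLN, where the list had a median log2 difference of -0.60, Blk was called higher in SSMs and Cd22 lower. The part of B cells in the levels of H2-Oa and H2-Ob was not tested. The 11 T cell markers summed to 2308 to 2535 CPM in ndLN SSMs, 1018 to 1170 in tdLN SSMs, 678 to 824 in ndLN MSMs and 492 to 534 in tdLN MSMs, although the gate had left out CD3+ cells. Most of the sum in MSMs came from Cd8a, at 357 to 605 CPM. Of the other markers in MSMs, Cd4 was at 58.4 to 116 CPM, Cd8b1 at 3.54 to 17.2 CPM and Cd3e at 2.14 to 16.3 CPM. Which cells carried Cd8a in MSMs was not tested, so this sum is not a measure of T cells. Cd8a was called lower in SSMs than in ndLN MSMs, at a log2 difference of -4.34 ± 0.27, whereas 10 other markers of the list were called higher. The 10 basophil and mast cell markers summed to 1803 to 2740 CPM in ndLN SSMs and 299 to 607 CPM in tdLN SSMs. In MSMs they summed to 608 to 622 CPM in ndLN and 270 to 375 CPM in tdLN, most of it from Kit, with Ms4a2 at 0. Both sums were thus lower in tdLN SSMs than in ndLN SSMs. Of the T cell markers, 3 were called lower between nodes in SSMs and 0 higher. The basophil and mast cell list went both ways, with Cpa3 and Kit called lower and the basophil protease Mcpt8 called higher, at 3.06 ± 0.38. The part of these cells in the difference between nodes was not tested.

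The genes whose pattern was most like that of the members were sought among 9981 other genes above the mean count cut-off. Likeness was the root mean square difference of log2 CPM, centered on the mean of each gene, over the 8 libraries. Closest to the mean of H2-Aa, H2-Ab1, H2-Eb1 and Cd74 were Acvrl1, Lsr, Gm6377, Tifab and Plbd1, with differences of 0.148, 0.174, 0.178, 0.187 and 0.196. Plbd1 was at 313 ± 54.8 CPM in ndLN SSMs, 1148 ± 94.0 in tdLN SSMs, 3954 ± 568 in ndLN MSMs and 3080 ± 39.9 in tdLN MSMs (SD, n = 2). On this measure H2-DMa, at 0.221, and H2-DMb1, at 0.244, were less like the mean than these 5 genes, and H2-DMb2, H2-Oa and H2-Ob stood at 0.956, 1.35 and 1.66. Closest to Ciita were Plekho1 and Olfm1, at 0.191 and 0.196, ahead of Gm6377, Cttnbp2nl and Slamf9 at 0.322 to 0.345. Among the members H2-DMa was nearest to Ciita, at 0.318. These values share libraries and are a description.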

How the data were processed

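Gene expression was measured in 16 samples, which are 8 libraries run on 2 lanes each. The authors trimmed reads with Trimmomatic 0.36, aligned them with STAR 2.5.3a to GRCm38, per the submitters' processing notes, and deposited raw counts per gene without normalization. The strand setting is not given in the sources used here. Between the lanes of 1 library, counts agreed within sampling noise (chi-square per degree of freedom 0.955 to 1.02, against 29.3 to 53.1 between pools), so the lanes were summed and each library was counted as 1 sample. GENCODE M21 gave symbols for 55154 of 55423 rows, and 2 rows of added sequences with 6 counts were left out.

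Genes were kept if they reached 10 counts in total and were seen in 2 or more samples. These 21085 genes were normalized by TMM (factors 0.902 to 1.15) and fitted with group and pool in edgeR 4.0.16 under R 4.3.3. All 8 libraries shared 1 estimate of the spread. Contrasts were tested with the quasi-likelihood test and Benjamini-Hochberg adjustment over all genes. A call needed a normalized count that averaged over 100 per lane, which 9996 genes had, and an adjusted p-value under 0.01. Standard errors are the log2 fold change divided by the square root of the F statistic. Same-numbered SSM and MSM libraries come from the same pooled nodes per the labels, and the correlations of their deviations were -0.0195 in ndLN and 0.140 in tdLN. Over the same 2 pool numbers, tdLN and ndLN correlated by 0.0241 in SSMs and -0.0152 in MSMs. In data simulated for SSMs against MSMs in ndLN, with 200 of 21085 genes changed 4-fold, 183 of 185 calls were correct, and 0 calls were made without a change. The simulated counts had the spread of the trend over expression level, with no spread particular to a gene and no difference between pools. Calls between nodes or in the interaction were not checked in this way.

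The members and lists were chosen with earlier results of these data known. The named genes are the members, genes of the lists with large differences among those called, and further genes, called or not, that a sentence needed. These further names followed no fixed rule and were chosen with their values in view. The nearest genes used log2 of CPM plus 0.1. Alternatives were no pool term, DESeq2 size factors, DESeq2 1.42.0, no filter, only the groups compared, each lane alone and each library left out. Promoters came from RefSeq (GRCm38.p6). Intervals for counting error do not cover variation between mice. Figures were drawn with matplotlib 3.10.9.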

Additional observations from a re-analysis of the deposited data

Results flagged for a closer look

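H2-DMb1, H2-Ab1 and Cd74 stood out because the step from ndLN to tdLN differed between SSMs and MSMs by the test of the interaction in the edgeR fit over all genes. The log2 interaction was 2.53 for H2-DMb1, 2.48 for H2-Ab1 and 2.28 for Cd74, each with the larger step in SSMs. In SSMs their log2 differences between nodes were 2.41, 2.17 and 2.01, and in MSMs they were -0.12, -0.31 and -0.27. All of them were called under the pool-free fit and with either lane alone, and none was called once any one library was left out, which leaves 1 library in a group and assumes that it varies like the others.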

How the results depend on the processing

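Leaving out each library in turn moved the counts of calls, in fits in which the lone library is assumed to vary like the other groups. For SSMs against MSMs in ndLN, 10 of 10 members were called throughout, the listed pathway genes called were between 12 and 22, and all genes called between 1082 and 2022. In tdLN the ranges were 3 to 8 members, 2 to 22 pathway genes and 507 to 1867 genes. Between nodes in SSMs they were 0 to 7 members, 0 to 9 pathway genes and 2 to 345 genes, and in MSMs 0 to 3 genes. In the interaction 0 members and 0 genes were called in each of these fits. Only members that were not called changed sign. H2-Ob in SSMs went from -0.28 to 0.0093, and in MSMs H2-Aa from -0.37 to 0.063, H2-Eb1 from -0.44 to 0.0056, H2-DMa from -0.38 to 0.064 and H2-DMb1 from -0.30 to 0.047 on the log2 scale.

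With only the groups compared, and 1 residual degree of freedom, SSMs against MSMs in ndLN gave 9 pathway genes and 954 genes, 0 members, pathway genes or genes were called between nodes in SSMs, and 0 genes in MSMs. DESeq2 called more: 2906 genes in SSMs against MSMs in tdLN, 19 pathway genes and 1793 genes between nodes in SSMs, 1 member, 4 pathway genes and 458 genes in MSMs, and 7 members, 11 pathway genes and 615 genes in the interaction. Without the replicate block that pairs pools, 9 genes were called in MSMs and 5 members in the interaction, and no other count moved by over 1.5 times. In the interaction 5 members were also called with no filter on low counts (all genes 12), with lane 3 alone (1 pathway gene, 25 genes) and with lane 4 alone (1 pathway gene, 29 genes), and 4 genes with DESeq2 size factors. In MSMs lanes 3 and 4 alone gave 24 and 17 genes. The causes of these shifts were not tested.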
